A study of Mus musculus with 2 samples.

Results

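Guanylate-binding proteins (Gbp) and immunity-related GTPases (Irg) are 2 families of interferon-induced GTPases. The 10 genes described here are a list of family members, taken by symbol from the deposited count table, out of 30538 listed genes. The rule uses no expression value, but the list was chosen with earlier results of these data known. It does not hold all of either family, and other rows of both are described below. The 10 are Gbp2, Gbp3, Gbp4, Gbp7 and Gbp8 of the first family and Irgm1, Irgm2, Igtp, Iigp1 and Tgtp1 of the second. All 10 passed the level filter of a mean of at least 1 CPM (counts scaled to library size), as did 11972 of the listed genes.

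RNA was sequenced from CD11b+, Ly6G-, Ly6C-low spleen cells of C57BL/6 and Ch25h-/- mice, given 100000 Listeria monocytogenes intravenously and sampled on day 3. Each sort took about 100000 cells, named resident splenic macrophages in the labels. Both groups were infected. The age of the mice, their number in each library and the origin of the Ch25h allele are not stated. Ch25h encodes the enzyme that makes 25-hydroxycholesterol from cholesterol, and the study asked how its loss alters the response of these cells to infection.

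Each genotype has 1 library, with 16957371 counts for C57BL/6 and 15986392 for Ch25h-/-, so there is no replicate check. Ratios are Ch25h-/- over C57BL/6, and every interval is an exact 95% interval that covers counting error only, not variation between mice or sorts. The targeted gene Ch25h had 3 counts in the C57BL/6 library and 0 in the Ch25h-/- library, too few to check the genotype labels. Macrophage transcripts were present in both libraries, with Csf1r at 324 and 239 CPM and Cd68 at 90.1 and 76.1 CPM. Transcripts of cytotoxic lymphocytes were abundant beside them. Per kilobase (kb) of exon, granzyme gene Gzmb stood at 3033 and 5173 CPM per kb and the NK receptor gene Ncr1 at 102 and 279. Of the macrophage and monocyte markers, Csf1r stood at 56.1 and 41.4 CPM per kb, Itgam at 140 and 175 and Lyz2 at 169 and 256. Single genes do not measure shares of cells.

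Interferon-gamma, released by NK and T cells, binds a receptor on macrophages that signals through Janus kinases. Many genes that answer it carry gamma-activated sites (GAS) near their starts. Interferon regulatory factors such as IRF1, or the ISGF3 complex downstream of type I interferon, bind interferon-stimulated response elements (ISRE). Guanylate-binding proteins then assemble on bacteria and on the vacuoles that hold them, and can release bacterial ligands to inflammasomes. Immunity-related GTPases attack vacuole membranes. The Irgm proteins (Irgm1, Irgm2, and Igtp, also called Irgm3) hold the other Irg proteins inactive on the cell's own membranes. Mice without Irgm1 are known to control Listeria poorly.

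Start regions of the genes were searched for both elements, because the 10 genes are known interferon targets. RefSeq start regions (GRCm38.p6, 250 bases before to 50 after the start) were matched for 7 of the 10 genes, and not for Gbp4, Gbp8 and Iigp1. The ISRE core GAAANNGAAA, searched on both strands, was found in all 7, against 3.99% of 27025 genes in the same table. The GAS core TTCNNNGAA, which reads the same on both strands, was found in 4 of the 7 (Gbp7, Irgm2, Igtp and Tgtp1), against 9.55% of genes. The stretches that hold the matches are printed 5′ to 3′ on the gene's strand in lower case, with ISRE and GAS letters in capitals. For Gbp7, Igtp and Irgm2 the 120 bases before the start are given, and for the others a stretch of 30 bases, because annotated exons lie in the longer window. Starts here are those of RefSeq, while the gene spans given below are those of the GENCODE annotation. The stretches of Irgm1, Irgm2 and Tgtp1 lie inside those spans. Gbp3 had 2 start regions, and all its matches lay in the same one.
Gbp2 (chr3:142620594-142620623, plus strand): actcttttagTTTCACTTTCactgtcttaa
Gbp3 (chr3:142559992-142560021, plus strand): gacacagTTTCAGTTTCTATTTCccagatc
Gbp7 (chr3:142530216-142530335, plus strand): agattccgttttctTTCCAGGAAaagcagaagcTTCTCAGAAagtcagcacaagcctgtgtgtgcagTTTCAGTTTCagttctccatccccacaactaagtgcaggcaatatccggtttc
Irgm1 (chr11:48871428-48871457, minus strand): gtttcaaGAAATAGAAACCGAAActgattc
Tgtp1 (chr11:48992310-48992339, minus strand): gccatTTCCAGGAAtcGAAACTGAAAccta
Igtp (chr11:58199436-58199555, plus strand): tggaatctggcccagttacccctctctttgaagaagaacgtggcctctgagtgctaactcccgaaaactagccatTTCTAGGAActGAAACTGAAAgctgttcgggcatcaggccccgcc
Irgm2 (chr11:58214857-58214976, plus strand): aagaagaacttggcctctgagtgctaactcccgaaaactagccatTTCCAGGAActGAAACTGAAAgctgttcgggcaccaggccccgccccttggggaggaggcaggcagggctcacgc

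In Tgtp1, Igtp and Irgm2 a GAS core is followed after 2 bases by an ISRE core on the same strand. The joined letters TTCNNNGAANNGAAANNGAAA occurred in 5 of the 32851 start regions. The 5 were those of Tgtp1, Igtp and Irgm2 and of the Irg genes Tgtp2 and Gm12185, all on chromosome 11. The arrangement was noticed in the printed stretches and then counted. The genes do not give independent matches, because the stretches of Igtp and Irgm2 shared 87 of 90 aligned bases. Gbp3 and Irgm1 each held 2 overlapping ISRE matches and no GAS match. Gbp7 held 2 GAS matches, 106 and 87 bases before its start, and an ISRE match at 53. A match describes letters only and says nothing about binding in these cells.

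**Figure D1:**
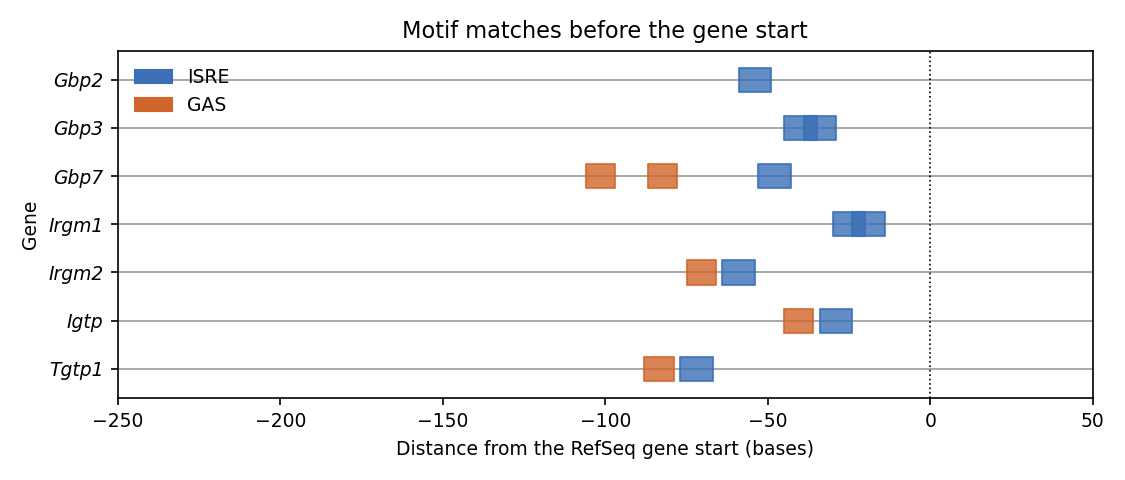
Positions of ISRE (blue) and GAS (orange) core matches relative to the RefSeq start, in bases, for the 7 genes with a start region. All matches lie between 106 bases before the start and the start itself, and GAS and ISRE sit 2 bases apart in Irgm2, Igtp and Tgtp1.

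Each of the 10 genes differed by at most 1.28-fold between the libraries. None was called higher or lower by the rule of a 2-fold difference with an interval excluding a ratio of 1. Over all measured genes, 2.07% were called higher and 5.77% lower. Among the 2671 genes at least as abundant as the least abundant of the 10, 0.524% were called higher and 1.91% lower. For 10 genes, having none called is near those shares. Log2 ratios lay between -0.17 (Irgm1) and 0.35 (Iigp1), with a median of 0.15, beside a median of 0.01 over all measured genes, whose middle 50% lay between -0.26 and 0.25. Ratios no larger in size than that of Iigp1 were found for 62.8% of all measured genes.

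By counting error alone, the interval lay above 0 for 7 of the 10 genes (31.0% of all measured genes) and below 0 for 2 (27.5%). Abundant genes have narrow intervals. Among the 2671 genes at least as abundant as the least abundant of the 10, 0.524% were called higher and 1.91% lower, the interval lay above 0 for 47.0% and below 0 for 32.0%, and the median log2 ratio was 0.05. Together the 10 genes took 0.306% (0.303 to 0.309%) of C57BL/6 counts and 0.325% (0.323 to 0.328%) of Ch25h-/- counts. On the scaled counts the summed level had a log2 ratio of 0.11 (0.10 to 0.13). In RNA from sorted bulk cells, fewer cells of a type and less RNA per cell cannot be told apart.

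The chromosome 3 group of guanylate-binding proteins is represented by Gbp2, Gbp3 and Gbp7. Gbp2, a prenylated protein that coats bacteria and pathogen vacuoles (ENSMUSG00000028270, GRCm38 chromosome 3, 142620602 to 142638008, plus strand), stood at 560 CPM (C57BL/6) and 564 CPM (Ch25h-/-). Its log2 ratio of 0.01 (-0.03 to 0.05) was the nearest to 0 of the 10, and it became -0.02 when libraries were scaled by total counts alone. Gbp3 (ENSMUSG00000028268, chromosome 3, 142560026 to 142573209, plus strand) had 234 and 265 CPM, a log2 ratio of 0.18 (0.11 to 0.24). Gbp7, which is known to contribute to control of Listeria in cultured macrophages (ENSMUSG00000040253, chromosome 3, 142530342 to 142550149, plus strand), had 398 and 456 CPM, a log2 ratio of 0.19 (0.15 to 0.24). Gbp3 and Gbp7 thus stood slightly higher in the Ch25h-/- library while Gbp2, their neighbour, was level, and the intervals of Gbp3 and Gbp7 do not overlap that of Gbp2.

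The chromosome 5 group, represented by Gbp4 and Gbp8, moved within the same small range. Gbp4 (ENSMUSG00000079363, chromosome 5, 105115767 to 105139586, minus strand) took the most counts of the 10 genes, 644 CPM with Ch25h intact and 750 CPM without it. Its log2 ratio was 0.22 (0.18 to 0.26). Gbp8 (ENSMUSG00000034438, chromosome 5, 105014150 to 105139540, minus strand) had 166 and 177 CPM, a log2 ratio of 0.10 (0.02 to 0.17). The annotated gene models of Gbp4, Gbp8 and Gbp9 overlap on the same strand, and 18.1% of the 50-base stretches in Gbp8 transcripts also occur in another gene. The summed counts of Gbp4, Gbp8 and Gbp9 gave a log2 ratio of 0.14 (0.11 to 0.17), which lies below the interval of Gbp4 alone.

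The 3 regulatory Irgm genes did not share a direction. Irgm1 (ENSMUSG00000046879, chromosome 11, 48861968 to 48871683, minus strand) stood at 400 CPM (C57BL/6) and 355 CPM (Ch25h-/-). Its log2 ratio of -0.17 (-0.22 to -0.12) was the lowest of the 10. Irgm2 (ENSMUSG00000069874, chromosome 11, 58199618 to 58222782, plus strand) had 168 and 184 CPM, a log2 ratio of 0.13 (0.05 to 0.20). Igtp (ENSMUSG00000078853, chromosome 11, 58199556 to 58207591, plus strand) had 235 and 278 CPM, a log2 ratio of 0.25 (0.18 to 0.31). Irgm1 was thus lower in the Ch25h-/- library and its relatives higher, beyond counting error but by 11.2% for Irgm1 and 18.5% for Igtp. The models of Igtp and Irgm2 overlap, and their summed counts gave a log2 ratio of 0.20 (0.15 to 0.24).

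The vacuole-attacking Irg proteins Iigp1 (Irga6) and Tgtp1 (Irgb6) are normally held in check by the Irgm proteins, and their genes also pointed apart. Iigp1 (ENSMUSG00000054072, chromosome 18, 60376027 to 60392634, plus strand) stood at 127 CPM (C57BL/6) and 162 CPM (Ch25h-/-). Its log2 ratio of 0.35 (0.27 to 0.43), a level 1.28-fold higher, was the largest of the 10. Tgtp1 (ENSMUSG00000078922, chromosome 11, 48985327 to 48994172, minus strand) had 99.5 and 91.8 CPM, a log2 ratio of -0.12 (-0.22 to -0.02). Of the 50-base stretches in Tgtp1 transcripts, 79.4% also occur in its copy Tgtp2, so the division of reads between them is uncertain. Tgtp2 had 112 and 104 CPM, a log2 ratio of -0.11, and the summed counts of both gave -0.11 (-0.18 to -0.05).

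Ordered by ratio from Irgm1 to Iigp1, the 10 genes formed a graded series in which all 9 pairs of neighbours had overlapping intervals. The ends of the series, Irgm1 and Iigp1, did not overlap. The order mixes both families and all 4 chromosomes, with no gap between neighbours.

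**Figure D2:**
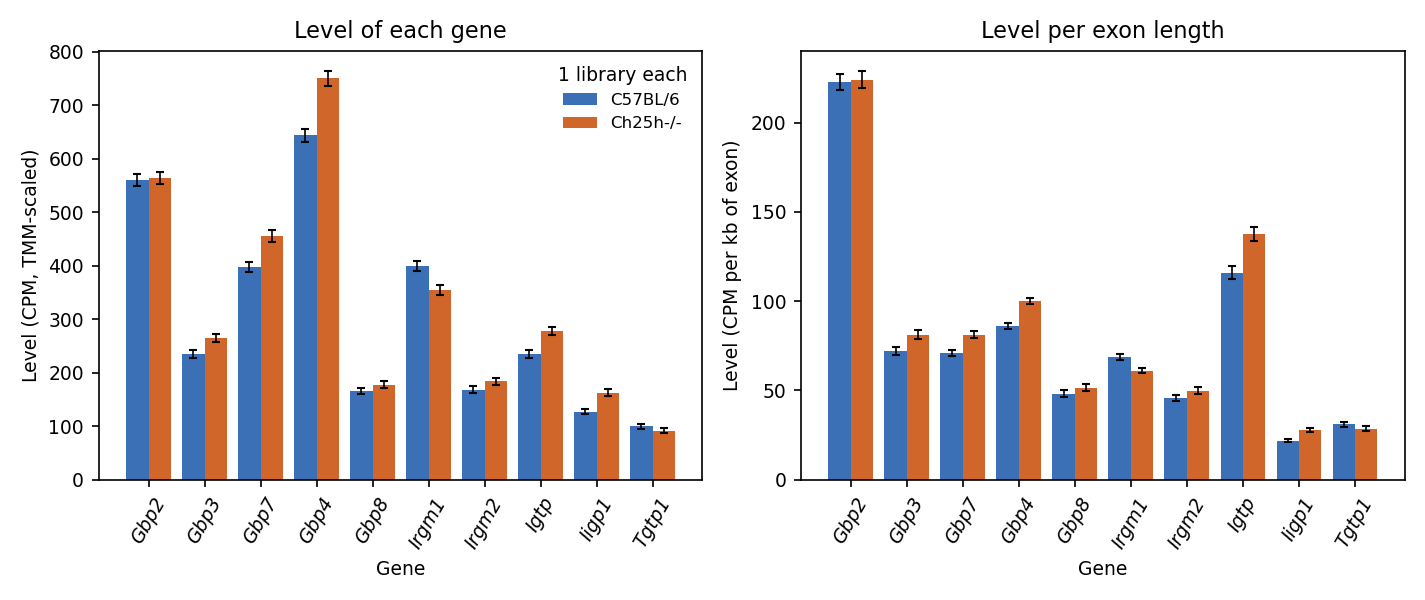
Level of each gene in the C57BL/6 (blue) and Ch25h-/- (orange) library, as TMM-scaled CPM (left) and as CPM per kb of exon (right). Bars are single libraries and error bars exact 95% Poisson intervals. Gbp2 is the highest per exon length in both libraries, and no pair of bars differs by more than the 1.28-fold of Iigp1.

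Levels of different genes can be set side by side only per exon length. On that scale Gbp2 was the highest of the 10, at 223 (C57BL/6) and 224 (Ch25h-/-) CPM per kb, above 99.0% of measured genes in each. Igtp followed at 116 and 137 CPM per kb, and Gbp4 at 85.9 and 100.1 CPM per kb. Gbp3 (71.8 and 81.2 CPM per kb) and Gbp7 (70.9 and 81.1 CPM per kb) could not be told apart in either library. Irgm1 (68.9 and 61.2 CPM per kb) overlapped Gbp7 in the C57BL/6 library and lay below it in the Ch25h-/- library.

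The lower part of the order held Gbp8 (48.2 and 51.5 CPM per kb) and Irgm2 (45.6 and 49.8 CPM per kb), whose intervals overlapped in both libraries. Tgtp1 (31.1 and 28.6 CPM per kb) was above Iigp1 (21.9 and 27.9 CPM per kb) in the C57BL/6 library and overlapped it in the Ch25h-/- library. Even Iigp1 lay above 79.4% of measured genes in the C57BL/6 library and above 84.3% in the Ch25h-/- library. The order of the 10 was the same in both libraries. It depends on the length used: with the median length of annotated transcripts in place of all exon bases, 1 of the 10 genes, Gbp2, kept its rank in the C57BL/6 library.

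Other GTPases of these families and their relatives had log2 ratios between -0.44 and 0.74. Of 18 listed rows in the table, 16 were measured, none was called higher or lower, 8 had an interval above 0 and 5 below, and their median log2 ratio was 0.14. The largest ratios were those of F830016B08Rik (8.42 and 14.1 CPM, 0.74), Gm4841 (6.14 and 9.66 CPM, 0.65) and the very large inducible GTPase genes Gvin1 (85.0 and 133 CPM, 0.65) and Gm4070 (95.02 and 145 CPM, 0.61). Gvin1 and Gm4070 are near-identical, since 98.3% of the 50-base stretches of Gvin1 occur in Gm4070. F830016B08Rik, Gm4841 and Gm4951 (27.7 and 34.2 CPM, 0.30) lie on chromosome 18 beside Iigp1. All 4 measured Irg genes of that chromosome had an interval above 0, against 31.0% of all measured genes. This grouping by chromosome was made with the values known, and an effect of position was not tested.

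For the other GTPases on chromosome 11, values lay on both sides of 0. Gm5431 had 47.6 and 35.0 CPM (-0.44) and Gm12185 74.3 and 65.1 CPM (-0.19). 9930111J21Rik1 stood at 0.10 (-0.02 to 0.22) and 9930111J21Rik2 at 0.18 (0.10 to 0.26). Of the 50-base stretches of 9930111J21Rik1, 80.4% occur in 9930111J21Rik2, so the division of reads between them is uncertain. The genes that follow lie on chromosomes 3, 5, 7 and 16. Gbp9 had 276 and 267 CPM (-0.05, interval -0.11 to 0.01). The row that the table names Gbp5 (605 and 543 CPM, -0.16) carries the name Gbp2b in the annotation, and the row named Gbp6 (291 and 367 CPM, 0.33) carries the name Gm43302, a model that overlaps Gbp6 and Gbp10, so these identities are less sure. The myxovirus resistance genes were split, with Mx1 at 216 and 271 CPM (0.33) and Mx2 at 44.5 and 36.0 CPM (-0.30). Mx2 is typed as a polymorphic pseudogene in the annotation. Irgq stood at -0.18 (-0.36 to 0.001).

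**Figure D3:**
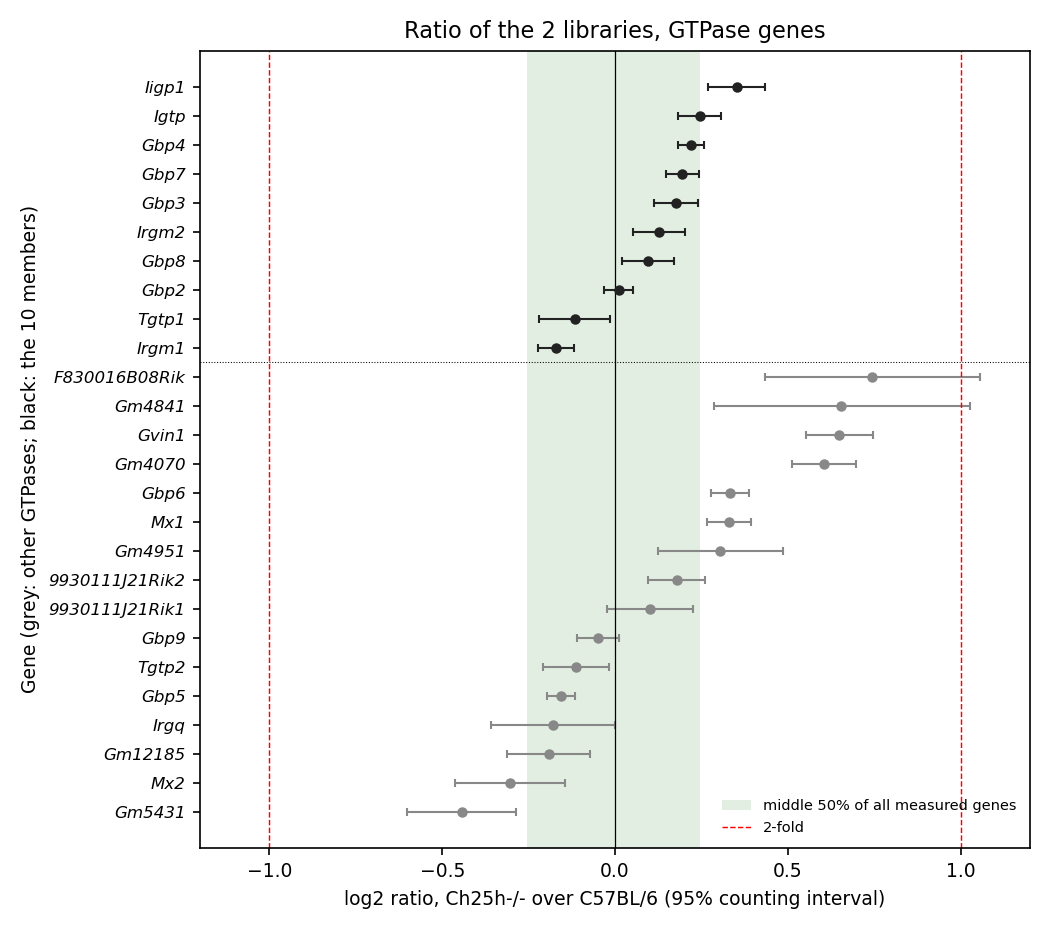
Log2 ratio of Ch25h-/- over C57BL/6 with exact 95% counting intervals for the 10 genes (black) and the 16 other measured GTPase genes (grey). The green band is the middle 50% of all measured genes (-0.26 to 0.25) and dashed lines mark 2-fold. For genes at least as abundant as the least abundant of the 10, the middle 50% is narrower (-0.14 to 0.23). The 10 genes run from -0.17 to 0.35, and no gene reaches 2-fold.

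Genes of the interferon-gamma pathway were taken to include the cytokine, its receptor, kinases, transcription factors and inhibitors. They spanned log2 ratios from -0.92 to 0.51, a wider range than the 10 GTPases. None of the 19 pathway genes was called higher or lower, 8 had an interval above 0 and 8 below, and the median log2 ratio was -0.02. Ifng itself stood at 1094 CPM (C57BL/6) and 1540 CPM (Ch25h-/-) (0.49). The ligand-binding receptor chain Ifngr1 had 569 and 735 CPM (0.37), while the signalling chain Ifngr2 had 67.4 and 35.7 CPM (-0.92, interval -1.06 to -0.77). The receptor chains thus pointed in opposite directions.

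Below the receptor, kinase gene Jak1 had 888 and 1028 CPM (0.21) and Jak2 475 and 340 CPM (-0.49). Irf1, a factor that binds ISRE and is needed for induction of many of these GTPases, had 668 and 563 CPM (-0.25), and Irf8 had 1428 and 2007 CPM (0.49). Of the inhibitors, Socs3 had 540 and 358 CPM (-0.59), Socs1 57.2 and 65.6 CPM (0.20), and Usp18, which restrains type I interferon signalling, 152 and 217 CPM (0.51). In the type I pathway, 7 of 9 genes were measured and none was called. Stat2 stood lowest (527 and 380 CPM, -0.47) and Tyk2 highest (261 and 314 CPM, 0.27), and Irf7 and Irf3 stood at -0.24 and -0.17.

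Other genes that interferon-gamma induces in macrophages had log2 ratios between -1.22 and 0.45. Of 26 measured, 2 were called lower and none higher, beside 5.77% and 2.07% of all measured genes. The interval lay above 0 for 6 and below 0 for 12, and the median log2 ratio was -0.04. The called genes were Cd274, which encodes the checkpoint ligand PD-L1 (936 and 458 CPM, -1.03), and the tryptophan-degrading enzyme gene Ido1 (5.43 and 2.34 CPM, -1.22). Nos2, the gene of inducible nitric oxide synthase, had 217 and 141 CPM (-0.62) without reaching 2-fold. The most abundant, the class I gene H2-K1, had 4923 and 4374 CPM (-0.17). On the other side, the aminopeptidase gene Lap3 had 30.4 and 41.6 CPM (0.45) and the chemokine gene Cxcl10 162 and 211 CPM (0.38).

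Genes whose products act on or after the GTPases were also examined. Of 14 genes of the ubiquitin and ubiquitin-like systems that direct these GTPases to membranes, none was called, 3 had an interval above 0 and 7 below, and the median was -0.11. Map1lc3b (132 and 73.0 CPM, -0.85), Map1lc3a (6.95 and 4.54 CPM, -0.61), the cargo receptor gene Sqstm1 (510 and 369 CPM, -0.47) and Traf6 (141 and 105 CPM, -0.42) were lowest. Atg5, whose product is required for proper placement of Irg proteins, had 27.5 and 35.9 CPM (0.38).

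Some guanylate-binding proteins carry a prenyl anchor, and the 6 genes of prenyl transfer and its later steps had a median of 0.30 with none called. Pggt1b, a subunit of geranylgeranyl transferase, had 22.7 and 30.9 CPM (0.44), followed by Zmpste24 (0.33), Icmt (0.31) and Fnta (0.30). Of 10 inflammasome genes, 1 was called lower, beside 5.77% of all measured genes. It was the cytokine gene Il1b (427 and 162 CPM, -1.40), and the median of the list was -0.25. The sensor genes Nlrc4 (43.5 and 25.9 CPM, -0.75) and Nlrp3 (75.9 and 46.2 CPM, -0.72) and the membrane rupture gene Ninj1 (-0.71) were next. Casp4 (140 and 166 CPM, 0.25), Casp1 (0.18), Aim2 (0.20) and, below 0, Gsdmd (175 and 157 CPM, -0.16) lay within the range of the 10 GTPases. Pycard stood at 0.59.

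**Figure D4:**
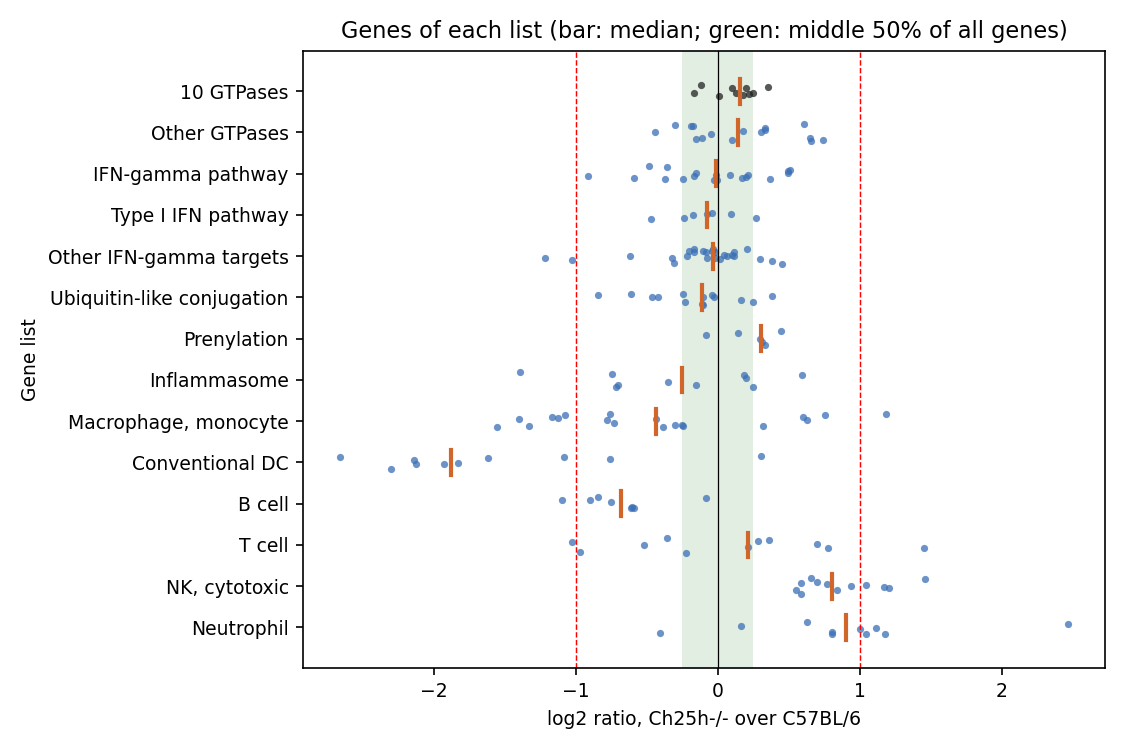
Log2 ratio of Ch25h-/- over C57BL/6 for each measured gene of the lists, with the median of each list as an orange bar, the middle 50% of all measured genes in green and 2-fold as dashed lines. The 10 GTPases lie between -0.17 and 0.35, while NK cell markers lie above 0 and 9 of 10 conventional dendritic cell (DC) markers below it.

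Markers of the cell types that the sorted cells could include were followed with fixed lists, and several lists differed between the libraries. Over all measured genes, 2.07% were called higher and 5.77% lower. All 12 NK and cytotoxic lymphocyte markers lay above 0 and 4 were called higher (Ncr1, Xcl1, Klre1 and Klrd1), with a median of 0.80 and summed levels of 12854 and 20748 CPM. Although the sort was Ly6G-negative, neutrophil markers had 5 of 10 called higher (Ngp, Ltf, Mmp9, Camp and Ly6g), a median of 0.90 and sums of 1097 and 1961 CPM. The interval lay above 0 for 8 of them, spanned 0 for Elane and lay below 0 for Mpo (67.8 and 51.0 CPM, -0.41). The gate gene Ly6g had 8 and 41 counts, a log2 ratio of 2.47 (1.36 to 3.77). Conventional dendritic cell markers had 8 of 10 measured genes called lower (Fscn1, Ccr7, Irf4, Flt3, Ccl22, Zbtb46, Batf3 and Esam), a median of -1.88 and sums of 2061 and 843 CPM. Of the 10 measured, only Itgax lay above 0 (272 and 336 CPM, 0.30). Xcr1 (0 and 6 counts) and Clec9a (5 and 13 counts), which mark the subset known to lack CD11b, were at or near 0.

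Of 19 macrophage and monocyte markers, 6 were called lower (Marco, C1qa, Cd163, Spic, Fcgr4 and Siglec1) and 1 higher (Ccr2), with a median of -0.44 and sums of 2411 and 2820 CPM. The interval lay below 0 for 13 and above 0 for 5. Those 5 were Ccr2 (1.19), the gate gene Ly6c2 (103 and 173 CPM, 0.75), Cx3cr1 (0.62), Lyz2 (0.60) and Itgam (0.31). Itgam (706 and 877 CPM) and Ccr2 (304 and 691 CPM) made up a large part of both sums. B cell markers had 1 of 8 called lower (Ebf1), a median of -0.68 and sums of 1399 and 862 CPM. T cell markers had 1 of 11 called higher (Cd28) and 1 lower (Il7r), a median of 0.21 and sums of 471 and 556 CPM. Lck alone had 186 and 320 CPM of these sums. The interval lay above 0 for 4, below 0 for 3 and spanned 0 for 4, among them Cd3e, Cd3d and Cd3g. The numbers of called genes stand beside 2.07% of all measured genes called higher and 5.77% called lower. The medians of these lists thus ran from -1.88 to 0.90, beside 0.15 for the 10 GTPases, and the part of these shifts in the GTPase values was not tested.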

How the data were processed

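The authors deposited raw read counts per gene, 1 column per library. Per the labels' protocols, TRIzol was used for extraction and KAPA RNA HyperPrep for the libraries. Builds GRCm38 and mm10 are named in the submitters' processing notes, as are the tools GSNAP, Subread 1.5.2 with featureCounts, edgeR 3.26.8 and FastQC 0.11.9. The strand setting, the annotation release and the treatment of reads that match several genes are not given in the sources used here.

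CPM were computed from these counts with TMM factors from edgeR 4.0.16 (R 4.3.3). A gene was measured at a mean of at least 1 CPM. Ratios carry no prior count, and their Clopper-Pearson 95% intervals (scipy 1.17.1, Python 3.11.15) cover counting error only. Without molecular identifiers, repeated reads of a molecule cannot be told from separate molecules. With 1 library per genotype no p-value was computed. A gene was called at a 2-fold ratio with an interval excluding 1. The calculation was run on counts simulated with counting error only. That run checks the code and cannot show how far mice or sorts vary.

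Positions, exon lengths and transcripts for the 50-base comparison come from GENCODE M21 (GRCm38), which holds 30126 of the gene IDs. Start regions are from RefSeq, matched by symbol. The 10 genes and all lists were chosen with earlier results of these data known. Genes named from a list outside the GTPases were taken from its called genes, its most abundant gene and its 4 largest ratios in size; not all of these are printed. Csf1r, Cd68, Lyz2, Cx3cr1, Ly6c2, Ifngr1, Jak1, Jak2, Irf1, Socs1, Cxcl10, Atg5, Casp1, Casp4, Aim2, Gsdmd, Pycard, Xcr1 and Clec9a were named after their values were seen. So were Elane, Mpo, Itgax, Cd3e, Cd3d and Cd3g. A gene of the pathway list is not reported here by name. Alternatives were scaling by total counts, by upper quartile, by size factors of DESeq2 1.42.0 and without NK, neutrophil and mitochondrial genes, filters at 5 CPM and at 1 count, a prior count of 2, a stricter call and another gene length.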

Additional observations from a re-analysis of the deposited data

How the results depend on the processing

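No paired analysis was possible because each genotype has 1 library. Under every alternative tried, 0 of the 10 genes were called higher and 0 lower, and the log2 ratios kept their sign except that of Gbp2, which was -0.02 with total counts. Scalings shifted all log2 ratios by at most 0.03. The number of genes with an interval above 0 was 7, or 6 with total counts, and 2 lay below 0 throughout. The median of 0.15 ranged from 0.13 (total counts) to 0.16 (upper quartile). The log2 ratio of the summed level, 0.11, became 0.089 with total counts, outside its counting interval, because that scaling shifts every ratio alike. With the median transcript length in place of exon length, 1 of 10 genes kept its rank by level per length. Chosen after seeing the data, sums over overlapping or near-identical genes moved Gbp4 from 0.22 to 0.14 and left Gbp8, Tgtp1, Igtp and Irgm2 within their intervals. Each of the 10 genes had at least 1454 counts in each library, and variation between mice or sorts could not be measured.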
